A study of Mus musculus with 6 samples.

Results

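The miR-200 family, miR-203 and miR-205 are miRNAs of epithelia and skin, and 7 mature miRNAs of these names were followed in serum exosomes of mice given Acu/LFES, an acupuncture whose needles carry a low frequency current. They were taken by name from the deposited count table, as mmu-miR-200a-3p, mmu-miR-200b-3p, mmu-miR-200c-3p, mmu-miR-141-3p, mmu-miR-429-3p, mmu-miR-203-3p and mmu-miR-205-5p, where mmu stands for mouse. They are 7 of the 1982 rows of that table, of which 1915 carry the prefix mmu, 63 that of a plant and 4 the prefix hiv1. Of all 1982 rows, 954 had a count in at least 1 mouse. The sham group was 3 male C57BL/6 mice aged 3 months, labelled Control and numbered 1 to 3, whose needles were placed close to the treatment points and wired to the stimulator without current. The Acu/LFES group was 3 mice of the same strain, sex and age, numbered 4 to 6, whose hindlimb was stimulated once for 30 min. Each mouse gave 1 library from exosomes pelleted out of serum, and needles passed through skin in both groups.

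miRNAs are short RNAs that pair with mRNAs mostly through their seed, bases 2 to 8 of the mature strand, and lower the output of those mRNAs. The miR-200 family is abundant in epithelial cells of many organs, where it holds down the transcription factors ZEB1 and ZEB2 and so helps to keep epithelial cells from turning into mesenchymal ones. miR-203 is a miRNA of the differentiating layers of the epidermis and targets p63, and miR-205 is made in the basal layer of skin and other stratified epithelia. In a pellet of serum exosomes, fewer vesicles from epithelium and fewer copies in each vesicle cannot be told apart.

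The mature sequences from RefSeq, in which all 7 were found, are given 5′ to 3′ with the seed in capitals. They are shown because the seed divides the miR-200 family and because its members differ at so few bases that their reads could be confused.
miR-200b-3p: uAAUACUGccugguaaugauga
miR-200c-3p: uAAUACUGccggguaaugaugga
miR-429-3p: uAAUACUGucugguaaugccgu
miR-200a-3p: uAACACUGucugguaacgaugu
miR-141-3p: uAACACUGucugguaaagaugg
miR-203-3p: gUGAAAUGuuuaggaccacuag
miR-205-5p: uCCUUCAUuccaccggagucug
miR-200b-3p, miR-200c-3p and miR-429-3p share the seed AAUACUG, and miR-200a-3p and miR-141-3p share AACACUG. No other mature mouse miRNA in the RefSeq set has either seed, and 0 others have the seed of miR-203-3p or of miR-205-5p. With positions counted from 1 at the 5′ end, the seeds of miR-200a-3p and miR-200b-3p differ by C4U. Within a seed group, miR-200c-3p differs from miR-200b-3p by U11G and A22G over the bases they have in common, and miR-141-3p differs from miR-200a-3p by C17A and U22G. miR-429-3p is set apart from miR-200b-3p by C9U, A19C, U20C and A22U. The number of mismatches that the counting allowed is not given in the sources used here, so a share of the reads of miR-200b-3p and miR-200c-3p, or of miR-200a-3p and miR-141-3p, may have been counted on the other member.

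The family comes from a pair of gene clusters, with coordinates here from RefSeq on GRCm38.p6. Mir429 (chromosome 4, 156053905 to 156053987), Mir200a (156054896 to 156054985) and Mir200b (156055681 to 156055750) lie on the minus strand with 908 and 695 bases between neighbours, within introns of the protein-coding gene Ttll10 in GENCODE M21. Mir141 (chromosome 6, 124717914 to 124717985) and Mir200c (124718322 to 124718390) lie 336 bases apart on the minus strand in an intron of the noncoding gene Gm15884, beside Ptpn6 and Phb2. Mir203 is on the plus strand of chromosome 12 from 112130880 to 112130955, between Aspg and Kif26a, and RefSeq places the arms miR-203b-3p and miR-203b-5p, which were not analysed here, on the opposite strand of its hairpin. Mir205 is on the minus strand of chromosome 1 from 193507463 to 193507530, in an exon of a noncoding RNA listed as 4631405K08Rik in GENCODE and as Mir205hg in RefSeq. The cluster on chromosome 4 thus supplies members of both seeds, as does the cluster on chromosome 6.

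Library totals ranged from 391708 to 658833 counts in sham mice and from 517421 to 1504137 in Acu/LFES mice. Acu/LFES mouse 6 stood apart from the other libraries. The red-cell miRNA miR-486, listed as miR-486a-5p and as miR-486b-5p with the same counts, took 29.2% of its counts against 61.7% to 74.0% in the other mice. Its TMM factor, by which edgeR scales a library to the miRNAs that change least, was 2.12 against 0.65 to 1.11. Values below are CPM unless stated, counts scaled to a common library size with these factors, and 3 counts stood at 1.80 CPM in mouse 4 and at 9.93 CPM in mouse 3. The shares of counts on other listed cell types also varied within groups. Liver miR-122-5p took 0.477% to 1.61% in sham and 0.188% to 3.24% in Acu/LFES mice, the 3 skeletal muscle miRNAs 0.657% to 1.21% and 0.569% to 2.63%, and the 3 white-cell and platelet miRNAs 0.141% to 0.410% and 0.200% to 0.617%. Of the 5 red-cell miRNAs, miR-144-3p was at 0 counts in every sham mouse and at 3, 0 and 1 with Acu/LFES. miR-16-5p stood at 8210 CPM in mouse 6, against 6411 to 10815 CPM in the other mice. miR-451a stood at 943 CPM there, above sham mouse 1 at 692 CPM but below the other mice, which were at 1115 to 1907 CPM. Neither miR-16-5p nor miR-451a had its lowest value in mouse 6, while miR-486 did. The part of these differences in the results below was not tested, other than by leaving mice out.

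The 7 miRNAs together took 0.430%, 0.102% and 0.110% of all counts in sham mice 1, 2 and 3, with exact binomial intervals of 0.414% to 0.446%, 0.0941% to 0.110% and 0.0994% to 0.120%. They took 0.302%, 0.152% and 0.869% in Acu/LFES mice 4, 5 and 6, with intervals of 0.293% to 0.311%, 0.142% to 0.162% and 0.844% to 0.894%. These intervals cover counting error only. Mouse 1 of the sham group and mouse 6 of the Acu/LFES group were highest, and the groups overlapped. With both miR-486 rows taken out of the total, the share was 1.12%, 0.391% and 0.380% in sham mice and 0.792%, 0.573% and 1.23% in Acu/LFES mice, and the groups again overlapped.

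miR-205-5p was the most counted of them, with 9163 counts over the 6 libraries, and ranked 44th of the 259 miRNAs tested. miR-203-3p ranked 69th, miR-200c-3p 88th, miR-200a-3p 123rd and miR-200b-3p 227th, with miR-429-3p between the last 2. The mature strands are 22 or 23 bases long, so these levels were set side by side without dividing by length. miR-205-5p and miR-203-3p held most of the counts on the 7 miRNAs in every library. The miR-200 family held 19.0%, 32.4% and 23.8% of them in the sham mice against 13.8%, 16.4% and 8.57% in the Acu/LFES mice. In this composition each Acu/LFES mouse lay below each sham mouse, but how often other sets of miRNAs separate in this way was not computed. Within the family the AAUACUG seed outnumbered AACACUG in every mouse. Its summed level was 568, 383 and 301 CPM in sham mice and 264, 225 and 245 CPM in Acu/LFES mice, against 169, 124 and 36.4 CPM and 112, 102 and 107 CPM for AACACUG. As percents of all counts the groups overlapped for AAUACUG. It took 0.0629%, 0.0249% and 0.0232% in sham mice and 0.0293%, 0.0171% and 0.0518% in Acu/LFES mice.

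**Figure D1:**
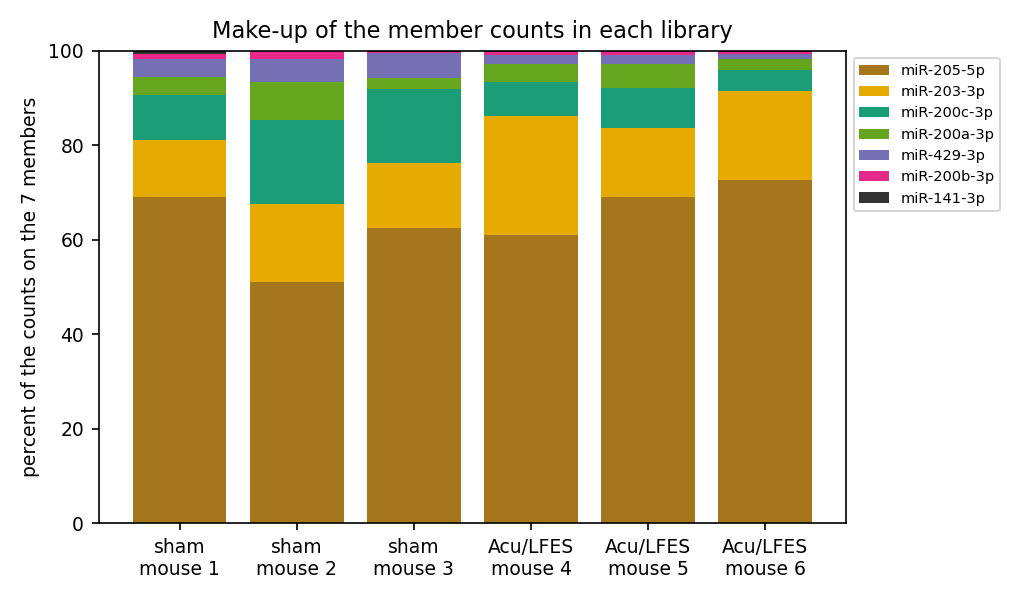
Percent of the counts on the 7 miRNAs that fell on each of them (vertical axis), with 1 stacked bar for each mouse. The bottom segments, miR-205-5p and miR-203-3p, filled 67.6% to 81.0% of the bar in sham mice and 83.6% to 91.4% in Acu/LFES mice. How often other sets of miRNAs separate in this way was not computed.

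Sham and Acu/LFES mice were tested against each other with edgeR's quasi-likelihood test over the 259 miRNAs left by its default filter. 6 of the 7 miRNAs passed, and miR-141-3p did not. 0 of the 6 had an adjusted p under 0.05, where 0% of all miRNAs tested did (Benjamini-Hochberg over the 259), and 0 of the 6 had an unadjusted p under 0.05, where 8.88% of all miRNAs tested did, 5.79% higher and 3.09% lower with Acu/LFES. With DESeq2 in place of edgeR, 0 of the 5 miRNAs among these that it gave an adjusted p had one under 0.05, where 5.41% of the 148 miRNAs with one did. 2 of the 6, both lower with Acu/LFES, had an unadjusted p under 0.05 in DESeq2, where 11.2% of all miRNAs tested did, including 4.63% of all miRNAs tested that were lower. Of the log2 fold changes of the 6, taken as Acu/LFES over sham, 3 were above 0, where 52.9% of all miRNAs tested were, and 3 below, with a median of -0.22 against 0.05 for all miRNAs tested. In CPM, the groups did not overlap for 2 of the 6, miR-200c-3p and miR-429-3p, where they did not overlap for 17.0% of all miRNAs tested. In both the Acu/LFES mice were the lower ones, as they were for 8.11% of all miRNAs tested, while they were the higher ones for 8.88%. With total counts as the library size 0 of the 6 did not overlap, where 15.8% of all miRNAs tested did not, and with totals that leave out both miR-486 rows it was 2 of the 6, where it was 18.9% of all. The p-values set each difference between groups against the spread between mice of a group, as estimated with information shared across miRNAs. The mice are separate animals, and nothing in the labels pairs them across groups.

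**Figure D2:**
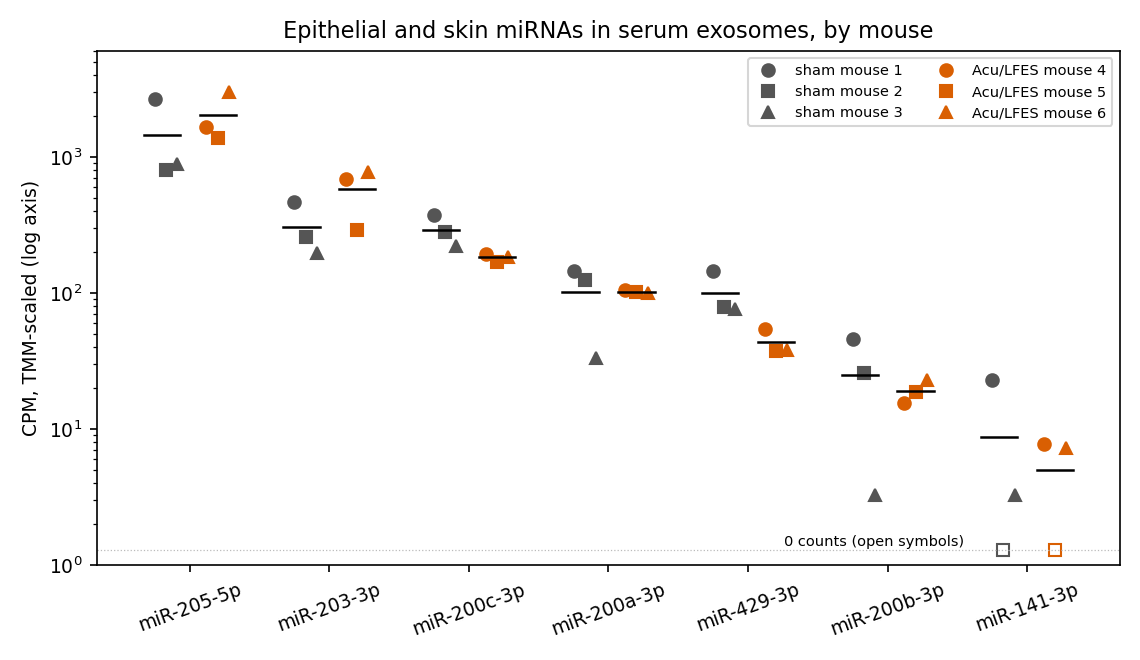
CPM of each miRNA on a log axis, with 1 point for each mouse (grey, sham; orange, Acu/LFES) and a line at the mean of each group; open symbols at the bottom are libraries with 0 counts. The 3 Acu/LFES points lie below the 3 sham points for miR-200c-3p and miR-429-3p and overlap them for the other miRNAs.

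mmu-miR-200c-3p, the most counted member of the family, stood at 375.6, 278.2 and 221.9 CPM in sham mice 1, 2 and 3 and at 194.3, 168.8 and 183.8 CPM in Acu/LFES mice 4, 5 and 6. All Acu/LFES mice were below all sham mice, although the exact Poisson intervals of the lowest sham and the highest Acu/LFES mouse overlapped, with 172 to 282 CPM in mouse 3 and 174 to 217 CPM in mouse 4. The mean was 291.9 ± 77.8 CPM in sham and 182.3 ± 12.8 CPM with Acu/LFES (± SD, n = 3 each), a log2 fold change of -0.68 (standard error 0.35, 95% interval -1.47 to 0.10, edgeR adjusted p = 0.568). With total counts as the library size it was -0.069 and the groups overlapped, and without sham mouse 1 it was -0.41.

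mmu-miR-429-3p, which shares the seed of miR-200c-3p but comes from the cluster on chromosome 4, stood at 146, 79.5 and 76.2 CPM in the sham mice against 54.6, 37.5 and 38.4 CPM with Acu/LFES. Again all Acu/LFES mice were below all sham mice, although the exact Poisson intervals of the lowest sham and the highest Acu/LFES mouse overlapped. These were 48.3 to 114 CPM in mouse 3, from 23 counts, and 43.9 to 67.0 CPM in mouse 4, from 91 counts. The mean was 101 ± 39.3 CPM in sham and 43.5 ± 9.61 CPM with Acu/LFES (± SD, n = 3 each), which is the lowest of the 6 log2 fold changes at -1.21 (standard error 0.61, 95% interval -2.56 to 0.15, edgeR adjusted p = 0.568). With total counts it was -0.68 and the groups overlapped, as CPM of the unscaled total were 162, 51.6 and 58.7 in sham mice and 60.5, 28.5 and 81.2 in Acu/LFES mice. Without sham mouse 1 it was -0.79. DESeq2 gave an unadjusted p of 0.0257 for miR-429-3p and of 0.0450 for miR-200c-3p, with adjusted p of 0.238 and 0.333.

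mmu-miR-200a-3p, the most counted member with the AACACUG seed, stood at 146, 124 and 33.1 CPM in the sham mice against 104, 102 and 99.7 CPM with Acu/LFES. The Acu/LFES mice lay inside the range of the sham mice, of which mouse 3 was low with 10 counts. Its log2 fold change was 0.0015 (standard error 0.61, 95% interval -1.36 to 1.36, edgeR adjusted p = 0.999). The 3 Acu/LFES values were closer to each other than the counting interval of any one of them, which was 81.8 to 120 CPM in mouse 6. Without sham mouse 3 the log2 fold change was -0.37, and with total counts it was 0.59.

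mmu-miR-200b-3p, from the same cluster as miR-200a-3p and with the seed of miR-200c-3p, was low in every library. It had 32, 11 and 1 counts in the sham mice, or 46.2, 25.7 and 3.31 CPM, and 26, 9 and 25 counts in the Acu/LFES mice, or 15.6, 18.8 and 22.9 CPM. The single count of sham mouse 3 has an exact Poisson interval of 0.0838 to 18.4 CPM. The log2 fold change was -0.43 (standard error 0.95, 95% interval -2.56 to 1.69, edgeR adjusted p = 0.924), 0.42 without sham mouse 1 and 0.15 with total counts. mmu-miR-141-3p, the cluster partner of miR-200c-3p, was counted 16, 0 and 1 times in the sham mice against 13, 0 and 8 with Acu/LFES. In CPM this was 23.1 and 3.31 in sham mice 1 and 3 and 7.80 and 7.32 in Acu/LFES mice 4 and 6. The limit for a count of 0, taken as 3 counts, was 7.01 CPM in mouse 2 and 6.25 CPM in mouse 5, and a difference between the groups was not detectable at this depth. In both mice with 0 counts of miR-141-3p, its cluster partner miR-200c-3p had 119 and 81 counts.

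mmu-miR-203-3p, the miRNA of the upper epidermis, stood at 467, 259 and 195 CPM in the sham mice against 685, 290 and 773 CPM with Acu/LFES. Mice 4 and 6 were above all sham mice, and mouse 5 lay between sham mice 1 and 2. The mean was 307.1 ± 141.8 CPM in sham and 582.4 ± 257.3 CPM with Acu/LFES (± SD, n = 3 each), which is the highest of the 6 log2 fold changes at 0.92 (standard error 0.44, 95% interval -0.067 to 1.90, edgeR adjusted p = 0.568). With total counts the log2 fold change was 1.64, with an unadjusted p of 0.0308 and an adjusted p of 0.480. Without sham mouse 1 it was 1.41, and without Acu/LFES mouse 6 it was 0.68.

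mmu-miR-205-5p, the miRNA of basal skin cells, stood at 2677, 799 and 887 CPM in the sham mice against 1662, 1381 and 2986 CPM with Acu/LFES. Sham mouse 1 was second only to Acu/LFES mouse 6, while the other sham mice were below all Acu/LFES mice. The mean was 1455 ± 1059 CPM in sham and 2010 ± 857 CPM with Acu/LFES (± SD, n = 3 each), a log2 fold change of 0.46 (standard error 0.47, 95% interval -0.59 to 1.52, edgeR adjusted p = 0.799). This value moved with single libraries. It was 1.29 without sham mouse 1 (unadjusted p = 0.0115, adjusted p = 0.220 in edgeR), 0.054 without Acu/LFES mouse 6, 0.17 without sham mouse 2, 0.22 without sham mouse 3 and 0.70 without Acu/LFES mouse 5, and with total counts it was 1.14.

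**Figure D3:**
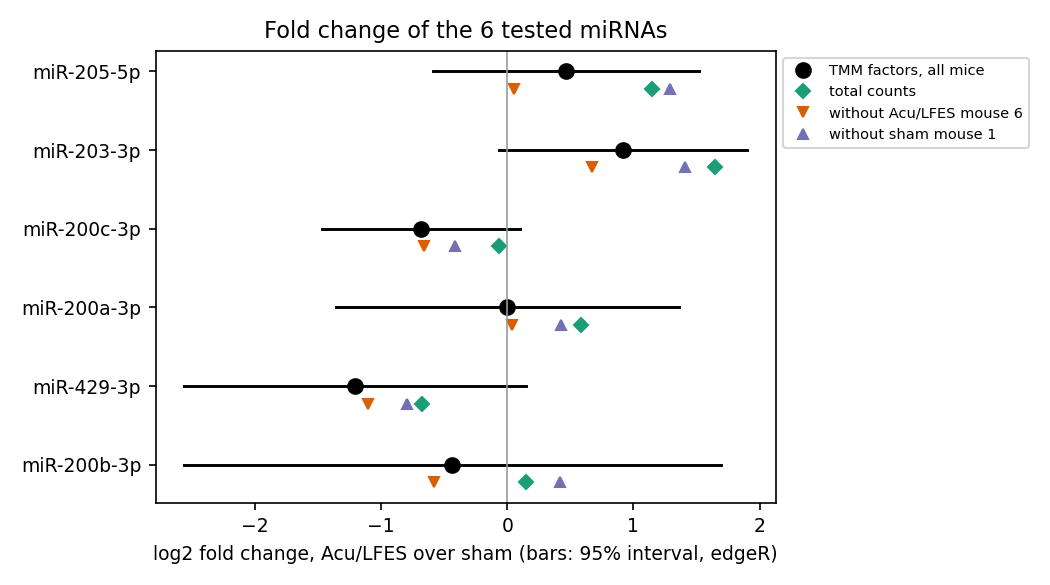
Log2 fold change of Acu/LFES over sham for the 6 tested miRNAs (black points, with 95% intervals from edgeR), and below each the value with total counts, without Acu/LFES mouse 6 and without sham mouse 1. The interval of every miRNA crosses 0, and the point of miR-205-5p moves from 0.46 to 0.054 without mouse 6 and to 1.29 without mouse 1.

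The size of these differences, and for miR-200a-3p and miR-200b-3p their sign, thus changed with how libraries were scaled, while ratios of counts within a library need no scaling. After the counts had been seen, the ratios of all 15 pairs of the 6 tested miRNAs were computed. The groups did not overlap for 7 of the 15, where they did not overlap for 14.7% of the 20910 pairs of other tested miRNAs with a count in every library. The 15 ratios are built from only 6 miRNAs and are not independent. For each of the 7 the two-sided exact permutation test gave p = 0.1, below which groups of 3 mice cannot go, and 0.214 after Benjamini-Hochberg adjustment over the 15.

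All 7 of these ratios had miR-200c-3p or miR-429-3p as the denominator. These miRNAs came last in the order used to form pairs, which made them the denominator against the other members. They are also the miRNAs whose CPM did not overlap between groups, so the 7 ratios are not independent of that result. The ratio of miR-203-3p to miR-429-3p was 3.20, 3.26 and 2.57 in the sham mice against 12.5, 7.72 and 20.1 with Acu/LFES. The sham mice, mouse 1 included, were close to each other here, and the mean difference was 2.06 on the log2 scale, between 1.72 and 2.41 when any single mouse was left out. The ratio of miR-205-5p to miR-429-3p was 18.3, 10.1 and 11.7 in the sham mice against 30.5, 36.8 and 77.7 with Acu/LFES, a mean log2 difference of 1.78. Acu/LFES mouse 6 was the highest in both, and without it the differences were still above 0, at 1.72 for miR-203-3p and 1.38 for miR-205-5p.

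Against miR-200c-3p the mean differences were smaller. The ratio of miR-203-3p to miR-200c-3p was 1.24, 0.933 and 0.881 in the sham mice against 3.52, 1.72 and 4.20 with Acu/LFES, a mean log2 difference of 1.55. That of miR-205-5p to miR-200c-3p was 7.13, 2.87 and 4.00 in the sham mice against 8.56, 8.19 and 16.2 with Acu/LFES, a mean log2 difference of 1.27. In the second of these ratios sham mouse 1 was well above the other sham mice and next below Acu/LFES mouse 5.

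Ratios within the miR-200 family were also among the 7. miR-200a-3p to miR-429-3p, from the same cluster but with different seeds, was 1.00, 1.56 and 0.435 in the sham mice against 1.91, 2.72 and 2.60 with Acu/LFES, a mean log2 difference of 1.44. miR-200a-3p to miR-200c-3p was 0.388, 0.445 and 0.149 in the sham mice against 0.537, 0.605 and 0.542 with Acu/LFES, a mean log2 difference of 0.92. Sham mouse 3, with 10 counts of miR-200a-3p, was the lowest in both of these ratios. Without this mouse the mean log2 differences were 0.93 to miR-429-3p and 0.43 to miR-200c-3p. miR-200c-3p to miR-429-3p, with the same seed but from different clusters, was 2.57, 3.50 and 2.91 in the sham mice against 3.56, 4.50 and 4.79 with Acu/LFES, a mean log2 difference of 0.52, and the highest sham mouse and the lowest Acu/LFES mouse were close. The ratio of miR-205-5p to miR-203-3p overlapped between groups, with 5.74, 3.08 and 4.54 in sham mice and 2.43, 4.77 and 3.86 in Acu/LFES mice. Ratios with miR-200b-3p have its single count in sham mouse 3 behind them, and the groups overlapped in all of these ratios.

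**Figure D4:**
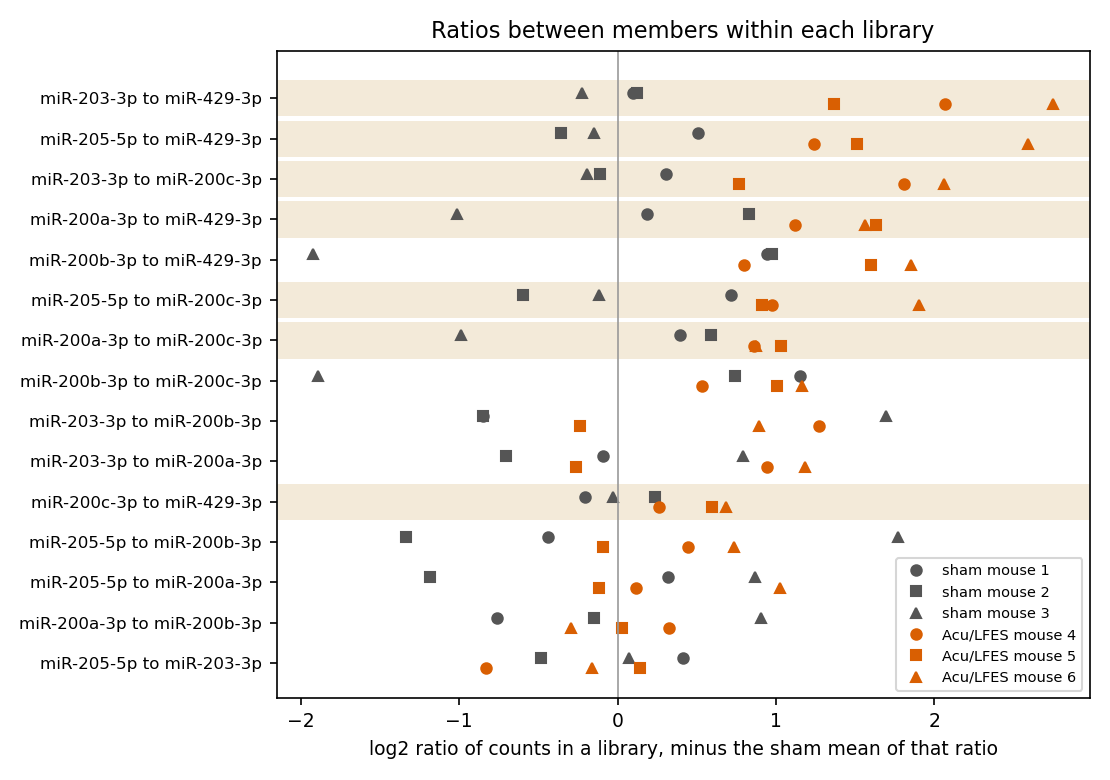
Log2 ratio of 2 members in each library, minus the sham mean of that ratio (horizontal axis), for the 15 pairs of tested miRNAs, with 1 point for each mouse. Shaded rows are the 7 pairs whose groups do not overlap. All 7 have miR-200c-3p or miR-429-3p, which came last in the order used to form pairs, as the denominator.

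The profiles over the 6 libraries were also compared with those of the 253 other miRNAs tested, by the root mean square distance of log2 CPM after each profile was centred on its mean. miR-200c-3p and miR-429-3p had the same nearest miRNA, miR-99b-5p, at distances of 0.24 and 0.30, where the median distance was 0.81 and 1.01. miR-99b-5p stood at 166, 101 and 126 CPM in the sham mice against 81.0, 81.3 and 64.0 CPM with Acu/LFES. miR-203-3p and miR-205-5p also shared a nearest miRNA, miR-199a-3p, which is listed with the same counts as miR-199b-3p, at distances of 0.17 and 0.30. miR-199a-3p stood at 2480, 1082 and 1060 CPM in the sham mice against 2979, 1538 and 3292 CPM with Acu/LFES. The nearest to miR-200a-3p was miR-101a-3p, at 0.29, and to miR-200b-3p it was miR-361-3p, at 0.26, and both of these were also lowest in sham mouse 3. miR-203-3p and miR-205-5p were 0.41 apart, and miR-200c-3p and miR-429-3p were 0.31 apart. The smallest of 253 distances is bound to lie below their median, so the medians give only the scale. These distances share the same libraries and scaling and are given as a description.

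The other arm of each hairpin, which is mostly discarded as the mature strand is loaded, was seen for 3 of the 7 rows listed. miR-200b-5p is the exception in that it was counted about as often as its partner. Its sequence is shown because it shares its seed AUCUUAC with miR-200a-5p, the other counted 5p arm of this cluster.
miR-200b-5p: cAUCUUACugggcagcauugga
miR-200a-5p: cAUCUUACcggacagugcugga
miR-200b-5p had 33, 13 and 9 counts in the sham mice against 21, 15 and 26 with Acu/LFES, so it made up 50.8%, 54.2% and 90.0% of the reads of both miR-200b arms in sham mice and 44.7%, 62.5% and 51.0% in Acu/LFES mice. The exact binomial interval was 55.5% to 99.7% in sham mouse 3, where the 3p arm had 1 count, and included 50% in the other mice. Its log2 fold change was -0.70 (standard error 0.80, edgeR adjusted p = 0.815). miR-200a-5p was counted 14 and 11 times in Acu/LFES mice 4 and 5 and 0 times in the other mice, where 3 counts stand at 2.74 to 9.93 CPM against its 8.40 and 22.9 CPM in mice 4 and 5. Acu/LFES mouse 6, with 109 counts of miR-200a-3p, thus had 0 of its 5p arm. miR-203-5p had 0, 1 and 0 counts in the sham mice against 3, 2 and 0 with Acu/LFES. The arms miR-200c-5p, miR-141-5p, miR-429-5p and miR-205-3p had 0 counts in every mouse.

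12 other miRNAs known from epithelia were set beside these. 11 had a count and 6 were tested, of which 3 had a log2 fold change above 0 and 3 below, with a median of -0.054, and 0 had an adjusted p under 0.05. The most counted were miR-215-5p and miR-192-5p, which are abundant in gut, liver and kidney. miR-215-5p stood at 6205, 7158 and 4798 CPM in the sham mice against 6096, 4278 and 4275 CPM with Acu/LFES. The 6 values of miR-192-5p were close, at 2940, 2943 and 2801 CPM in sham mice against 2335, 2892 and 2562 CPM in Acu/LFES mice. miR-375-3p, of pancreatic islets and gut epithelium, was the only one of the 6 with an unadjusted p under 0.05 in edgeR. Among all miRNAs tested, 8.88% had one, and 3.09% had one and were lower with Acu/LFES. miR-375-3p stood at 463.7, 348.3 and 493.4 CPM in sham mice against 179.3, 191.7 and 221.3 CPM with Acu/LFES. Its log2 fold change of -1.14 (standard error 0.31, edgeR adjusted p = 0.269) was near the -1.21 of miR-429-3p. miR-194-5p, which is cotranscribed with miR-192 or miR-215, overlapped between groups, with 53, 10 and 2 counts in sham mice against 66, 12 and 87 with Acu/LFES. The keratinocyte miRNA miR-31-5p, named after its values were seen, had 18, 0 and 1 counts in sham mice against 96, 13 and 29 in Acu/LFES mice. In CPM this was 26.0, 0 and 3.31 in sham mice against 57.6, 27.1 and 26.5 with Acu/LFES, so sham mouse 1 was next below Acu/LFES mouse 6. The log2 fold change of miR-31-5p was 1.80 (standard error 1.18, edgeR adjusted p = 0.739). miR-182-5p, the last of the 6, overlapped between groups, with 17, 24 and 1 counts in sham mice against 27, 20 and 34 with Acu/LFES.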

How the data were processed

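Small RNA of serum exosomes from 3 sham and 3 Acu/LFES mice was sequenced in a single lane. The authors deposited raw counts per mature miRNA, 1 column per mouse, with no normalization. Per the labels, cutadapt 1.6 and DESeq2 1.26.0 were among the tools. The aligner, the counter and the miRNA annotation are not given in the sources used here. The members and lists were chosen with earlier results of these data known.

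From the counts, edgeR 4.0.16 in R 4.3.3 gave TMM factors, the default filter and the quasi-likelihood test, with Benjamini-Hochberg adjustment and a threshold of 0.05. All rows entered the library totals and the percents of all counts, which included 63 rows of a plant with 104 counts in all. The TMM factors, the CPM scaled with them and the fits took library sizes from the rows left by the filter. Standard errors came from the F statistic. Ratios were tested by exact two-sided permutation. For profile distances 0.5 was added to CPM. Named miRNAs were the 7 members, their other arms, the 12 epithelial miRNAs (counts for all, up to 4 named by most counts, and miR-31-5p named after its values were seen) and the nearest miRNA of each tested member. Alternatives were total counts, upper-quartile factors, total counts without miR-486a-5p and miR-486b-5p, TMM factors without the members, DESeq2 1.42.0, no filter, a minimum of 10 counts in each library, identical rows collapsed and each mouse left out. Counting intervals and floors cover counting error only and leave out the spread between mice. They take each read as independent, although reads carried no molecular identifiers by which PCR copies could be told apart. Figures were drawn with matplotlib 3.10.9.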

Additional observations from a re-analysis of the deposited data

How the results depend on the processing

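0 members had an adjusted p under 0.05 in either direction under any alternative run, although DESeq2 gave none for miR-200b-3p. Over all miRNAs, DESeq2 gave 3 higher and 5 lower at an adjusted p under 0.05, where edgeR gave 0 and 0, against 23 at an unadjusted p under 0.05; the cause was not tested. Of the 83 log2 fold changes of members under an alternative, 75 stayed on the same side of 0 and of the threshold and 8 changed sign, all of them in miR-200a-3p or miR-200b-3p. miR-200a-3p turned to -0.017 with upper-quartile scaling, -0.0068 with the members kept out of the TMM factors, -0.0093 with DESeq2 and -0.0053 with at least 10 counts in every library, and it ranged from -0.37 to 0.43 with each mouse left out. miR-200b-3p turned to 0.15 with total counts and ranged from -0.90 to 0.42 with each mouse left out, and it had too few counts for the filter of at least 10 in every library. Total counts moved the median over all tested miRNAs from 0.05 to 0.71, and relative to that median miR-203-3p was at 0.93, miR-205-5p at 0.43, miR-200c-3p at -0.78 and miR-429-3p at -1.39. At an unadjusted p under 0.05 total counts gave 23 higher and 0 lower, against 15 and 8 with TMM factors. With no filter, 39 were higher and 14 lower, and the median was 0.68.

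With each mouse left out, the log2 fold change ranged from -0.81 to -0.41 for miR-200c-3p, from -1.42 to -0.79 for miR-429-3p, from 0.68 to 1.41 for miR-203-3p and from 0.054 to 1.29 for miR-205-5p. The mean share of counts on the 7 miRNAs was 0.214% in sham and 0.441% in Acu/LFES mice, and without miR-486a-5p and miR-486b-5p in the denominator it was 0.631% and 0.864%. It ranged from 0.106% to 0.270% and from 0.227% to 0.585% with each mouse left out. Of the ratios, chosen after seeing the data, 7 of the 90 values with a mouse left out changed sign, all in pairs whose groups overlapped. The log2 ratios ranged from -0.25 to 0.78 for miR-205-5p to miR-200a-3p, from -0.30 to 1.25 for miR-205-5p to miR-200b-3p, from -0.36 to 0.47 for miR-200a-3p to miR-200b-3p and from -0.043 to 1.48 for miR-200b-3p to miR-200c-3p. No paired analysis was possible because the mouse numbers are not shared between groups. Depth limits miR-141-3p, miR-200b-3p and the other arms, which had between 0 and 33 counts in a library.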
